A study of Mus musculus with 4 samples.

Results

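Orexin neurons make the orexin peptides from a single precursor gene, *Hcrt*. They sit in the lateral hypothalamus among neurons that make melanin-concentrating hormone (MCH, gene *Pmch*), project through much of the brain, and are known for holding wakefulness and for linking feeding, reward and sympathetic outflow. They are also known to carry the opioid precursor gene *Pdyn* and the LIM homeobox factor *Lhx9*, to release glutamate, and to signal through the receptors *Hcrtr1* and *Hcrtr2*.

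Nuclei of this kind were looked for in single-nucleus RNA counts of mouse hypothalamic punches labelled as arcuate nucleus (ARC). The 4 libraries came from male wildtype C57BL/6J mice that were 10 weeks old, after 3 weeks of DOCA-salt (deoxycorticosterone acetate with saline to drink) in DOCA-salt 1 and DOCA-salt 2 or of sham treatment in Sham 1 and Sham 2. Each library pooled the nuclei of a pair of mice, so that no nucleus can be assigned to its mouse. The libraries held 45126915, 79437196, 53257230 and 59293582 unique molecular identifiers (UMIs, 1 per captured transcript) in the order DOCA-salt 1, DOCA-salt 2, Sham 1 and Sham 2.

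The Hcrt nuclei were chosen by their measured *Hcrt* and *Pmch* counts, namely *Hcrt* at 0.5% or more of the UMIs of a nucleus and at 10 UMIs or more, with *Pmch* below 2%. Of 39176 nuclei that passed the limits on quality, 261 met this rule. DOCA-salt 2 gave 259 of them and Sham 1 gave 2, while DOCA-salt 1 and Sham 2 gave 0. As a share of the nuclei kept in a library this was 1.37% in DOCA-salt 2 (exact binomial 95% interval 1.21 to 1.55%) and 0.0908% in Sham 1 (0.011 to 0.328%). The exact intervals of the 0 of 10307 nuclei in DOCA-salt 1 and the 0 of 7759 in Sham 2 reached up to 0.0358% and 0.0475%, and the limit of 3 counts in the total was 0.0291% and 0.0387%. Since nearly all of these nuclei came from 1 pool, DOCA-salt and sham were not compared, and the pool, its dissection and its treatment cannot be told apart.

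The libraries also differed in the transcripts that mark hypothalamic regions. Summed over all kept nuclei, *Hcrt* had a level of 804 CPM (counts per 1000000 UMIs) in DOCA-salt 2. The DOCA-salt 1 library held it at 1.74 CPM, Sham 1 at 13.0 CPM and Sham 2 at 2.48 CPM. *Pmch* set the same library apart, with 2849 CPM there, 29.2 CPM for DOCA-salt 1, 43.9 CPM for Sham 1 and 30.7 CPM for Sham 2. *Agrp*, the defining peptide of hunger-promoting ARC neurons, was ordered the other way. Its level was lowest in DOCA-salt 2 (1.57 CPM), with 209 CPM for DOCA-salt 1, 52.1 CPM for Sham 1 and 86.2 CPM for Sham 2. *Pomc*, the precursor made by the melanocortin neurons of the ARC, was likewise lowest there (38.4 CPM), the other libraries holding 348, 174 and 303 CPM in the same order. The library that held the Hcrt nuclei therefore had the lowest levels of both ARC peptides. *Lhx9* and *Pdyn* did not single out DOCA-salt 2. Taking DOCA-salt 1 first, then DOCA-salt 2 and both sham libraries, *Lhx9* had levels of 1.68, 3.89, 5.18 and 6.96 CPM, and *Pdyn* of 66.3, 47.0, 35.1 and 58.1 CPM.

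**Figure D1:**
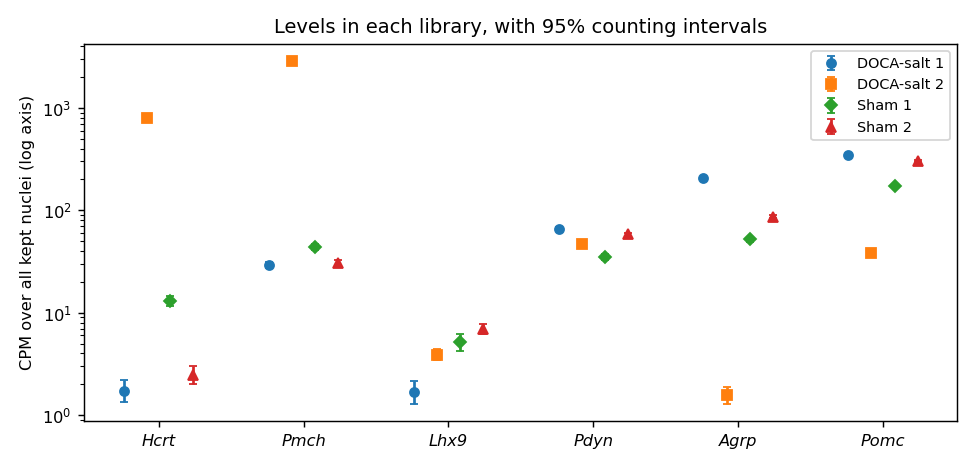
Level of 6 transcripts in each library, in CPM over all kept nuclei on a log axis, with exact Poisson 95% intervals (counting error only). *Hcrt* (804 CPM) and *Pmch* (2849 CPM) stand far above the other libraries in DOCA-salt 2, where *Agrp* (1.57 CPM) and *Pomc* (38.4 CPM) are lowest.

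*Hcrt* is a short gene on the minus strand of chromosome 11 (GRCm38, 100761069 to 100762931). The RefSeq window around its start, chr11:100762882-100763181 on the minus strand of GRCm38.p6, runs from 250 bases before the start to 50 after it. It is shown because *Hcrt* defines these nuclei, with a TATAAA match (the letters of a TATA box, searched on both strands) in capitals. The match begins at position -33 from the start, and the same letters occur in 13.6% of the 32851 windows of this length.
Hcrt: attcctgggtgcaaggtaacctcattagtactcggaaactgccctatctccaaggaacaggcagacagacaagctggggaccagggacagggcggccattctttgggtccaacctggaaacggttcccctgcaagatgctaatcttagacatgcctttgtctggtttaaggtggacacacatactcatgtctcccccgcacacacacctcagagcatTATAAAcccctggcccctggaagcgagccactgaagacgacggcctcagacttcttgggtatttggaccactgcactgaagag

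Within DOCA-salt 2 the 259 Hcrt nuclei varied widely in the transcript that chose them. *Hcrt* made up between 0.501% and 18.1% of the UMIs of a nucleus, with a median of 1.97% and quartiles of 0.989% and 4.65%. In UMIs this was 10 to 1693 molecules a nucleus, with a median of 75. Just inside the limit, 18 nuclei lay between 0.5 and 0.6%, and just outside it 24 nuclei with 10 UMIs or more lay between 0.4 and 0.5%. The nuclei inside held *Pdyn* at 59.0 CPM, *Lhx9* at 39.3 CPM and *Scg2* at 1190 CPM, and those outside at 118, 28.1 and 1062 CPM, so that *Pdyn* was not higher on the inner side of the limit. *Pmch* was found in 62.55% of Hcrt nuclei but at low shares, with a median of 0.0207% and a highest value of 0.939%. It was found in 61.68% of the library's other neurons (described below) as well, so that its detection did not set the Hcrt nuclei apart. A further 9 nuclei met the *Hcrt* limits but held *Pmch* at 2% or more and were not counted as members. The 2 nuclei of Sham 1 held 30 and 113 *Hcrt* UMIs, or 1.26% and 1.41% of their UMIs, and no *Pmch*.

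**Figure D2:**
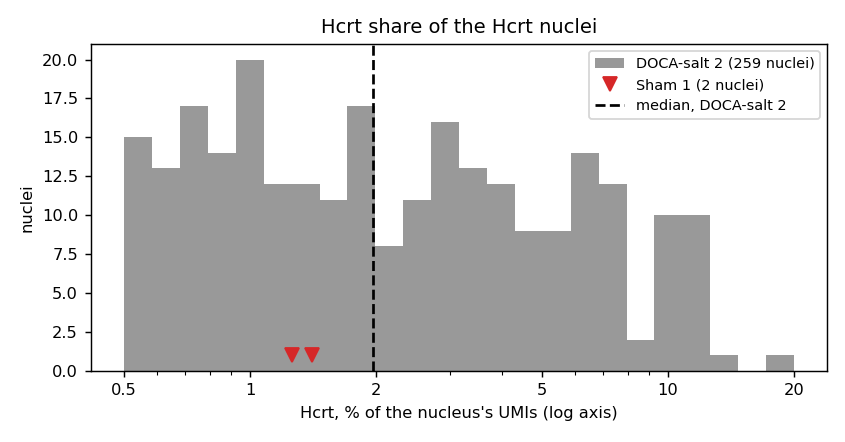
*Hcrt* as a share of the UMIs of each Hcrt nucleus, on a log axis, as the number of DOCA-salt 2 nuclei in each interval (gray bars, 259 nuclei) with the 2 nuclei of Sham 1 marked at 1.26% and 1.41%. The shares spread over the whole range from 0.501% to 18.1% around a median of 1.97% (dashed line).

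The Hcrt nuclei of DOCA-salt 2 had a median of 3602 UMIs and 2142 genes. The other neurons of the library (14446 nuclei with 2 or more UMIs of the synaptic genes *Snap25* and *Syt1* together) had medians of 3123 UMIs and 1992 genes. Mitochondrial transcripts made up a median of 6.73% of the UMIs in Hcrt nuclei and 5.60% in the other neurons. The *Snap25* and *Syt1* limit was met by 212 of the 259 Hcrt nuclei. The remaining 47 were shallower, with a median of 1155 UMIs, and held more *Hcrt*, with a median of 3.43% against 1.79%. Both kinds carried the orexin markers. *Pdyn* stood at 371 CPM in the nuclei past the limit and 531 CPM in those below it, and *Lhx9* at 70.7 and 156 CPM.

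Markers that the rule did not use were then read in the same library. All values of this kind are sums over the nuclei of 1 pool, so they carry exact 95% intervals for counting error only and no test, and nuclei are not replicates. *Lhx9*, which helps to specify orexin neurons, stood at 74.5 CPM (95% interval 61.1 to 89.9) in Hcrt nuclei and 2.38 CPM (2.01 to 2.79) in the other neurons, a ratio of 31.3 (24.2 to 40.4). *Pdyn*, which encodes the dynorphin precursor, stood at 378 CPM (347 to 412) against 40.2 CPM (38.6 to 41.8), a ratio of 9.42 (8.58 to 10.3). These were the 2 markers named for orexin neurons beside *Hcrt*, and both went with the label.

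Shares of nuclei with a UMI were compared after thinning each nucleus to 1000 UMIs, which left 232 Hcrt nuclei, 13228 other neurons, 336 Pmch nuclei and 180 oligodendrocyte nuclei deep enough. *Pdyn* was then found in 27.6% of Hcrt nuclei (exact binomial 95% interval 21.9 to 33.8%), 3.53% of the other neurons and 0.556% of oligodendrocyte nuclei. Oligodendrocytes are not known to make neuropeptides, and their share is given beside the neurons' as a reference, although free RNA in neuronal nuclei was not measured. *Lhx9* was found in 7.33% (4.33 to 11.5%) of Hcrt nuclei, 0.227% of the other neurons and in 0 of the 180 oligodendrocyte nuclei. Without thinning, *Pdyn* was found in 55.6% and *Lhx9* in 28.6% of Hcrt nuclei, against 11.3% and 0.858% of the other neurons. *Hcrt* itself was found at 1000 UMIs in 10.7% of the other neurons and 18.9% of oligodendrocyte nuclei, so that a single *Hcrt* UMI did not mark an orexin neuron in this library. *Pmch* was found at 1000 UMIs in 31.9% of Hcrt nuclei, 30.0% of the other neurons and 53.3% of oligodendrocyte nuclei. The 2 nuclei of Sham 1 carried 1 and 2 UMIs of *Pdyn* and 0 and 1 UMI of *Lhx9*.

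Of 14 genes listed from earlier work on orexin neurons, 13 were at a mean of 10 CPM or more over the Hcrt nuclei and the other neurons. Of these, 10 were 2-fold or more higher in Hcrt nuclei and 0 were 2-fold or more lower. One of the 10, *Qrfp*, rested on a single nucleus and was not past the limit without it. Over the whole library, 0.617% of 10047 genes at this level were 2-fold or more higher and 0.458% were 2-fold or more lower. The list's median log2 ratio (of CPM + 1) was 2.22, beside -0.08 over all genes. The list was drawn up with earlier results of these data known, so its count is a description.

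Several of these genes had not been part of the marker pair. *Rfx4*, a winged-helix transcription factor, stood at 102 CPM (86.2 to 120) in Hcrt nuclei and 13.2 CPM in the other neurons. *Nptx2*, a neuronal pentraxin that gathers AMPA receptors at synapses, stood at 172 CPM (151 to 194) against 29.8 CPM. *Plagl1*, an imprinted zinc finger factor, and *Nek7*, a kinase of the NIMA family, were 3.03-fold (2.57 to 3.55) and 4.25-fold (3.63 to 4.95) as high. *Igfbp3*, which binds insulin-like growth factors, stood at 56.5 CPM against 11.4 CPM. The members that stayed within 2-fold were *Dlk1* at 430 against 331 CPM, *Hs6st2* at 113 against 167 CPM and *Nr6a1* at 8.27 against 13.3 CPM. *Ebf2*, with 1 UMI in Hcrt nuclei, was under the minimum level.

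*Qrfp*, the precursor of another arousal and feeding peptide of the lateral hypothalamus, needs a separate reading. Its level was 31.0 CPM (22.6 to 41.5) in Hcrt nuclei and 4.77 CPM in the other neurons, but only 2.70% of Hcrt nuclei held a UMI of it, beside 0.526% of the other neurons. A single nucleus held 30 of its 45 UMIs, or 66.7%. Without that nucleus *Qrfp* stood at 10.4 CPM in Hcrt nuclei, a log2 ratio of 0.98 in place of 2.47, and its mean level came below 10 CPM. For comparison, no nucleus held more than 4.82% of the *Nptx2* UMIs or 3.70% of the *Lhx9* UMIs.

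**Figure D3:**
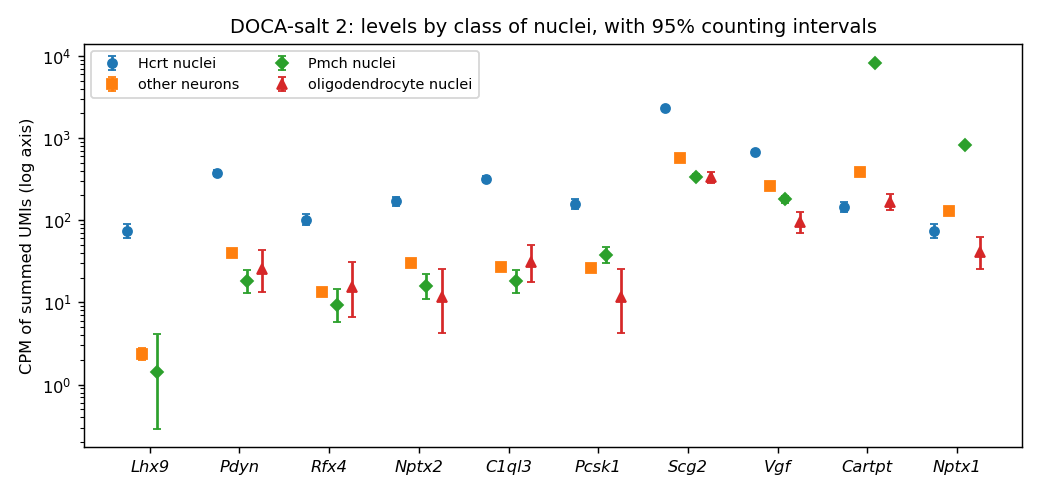
Levels of 10 genes in 4 classes of DOCA-salt 2 nuclei, in CPM of summed UMIs on a log axis, with exact Poisson 95% intervals (counting error only); *Lhx9* had no UMI in oligodendrocyte nuclei and has no point there. *Lhx9*, *Pdyn*, *Rfx4*, *Nptx2*, *C1ql3*, *Pcsk1*, *Scg2* and *Vgf* are highest in Hcrt nuclei, and *Cartpt* and *Nptx1* are highest in Pmch nuclei.

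Of 18 secretory granule genes, all at 10 CPM or more, 3 were 2-fold or more higher in Hcrt nuclei than in the other neurons, 0 were 2-fold or more lower and 15 lay within 2-fold, with a median log2 ratio of 0.27. The shares over all genes were 0.617% and 0.458%. The 3 genes were *Scg2*, *Pcsk1* and *Vgf*, of which the first 2 also stand in the list of orexin neuron genes. *Scg2*, a granin that helps to form the granule core, stood at 2317 CPM (2240 to 2397) against 572 CPM (566 to 577). *Pcsk1*, the proprotein convertase that makes the first cuts in many peptide precursors, stood at 158 CPM (138 to 180) against 26.4 CPM. *Vgf*, a granin-like precursor, stood at 677 CPM (635 to 721) against 262 CPM. Other members lay within 2-fold. *Chgb* was 1.56-fold (1.44 to 1.69) and the granule synaptotagmin *Syt4* 1.53-fold (1.45 to 1.62) as high, whereas the second convertase *Pcsk2* stood at 238 against 223 CPM and the carboxypeptidase *Cpe* at 813 against 866 CPM. *Chga* was on the lower side, at 225 against 289 CPM.

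The windows around the starts of *Scg2* and *Pcsk1* are shown because both hold the letters TGACGTCA, the full palindrome of the cAMP response element, in capitals. The motif was picked after the levels were seen. It was searched for on both strands in the 9 RefSeq windows of *Hcrt*, *Lhx9*, *Pdyn*, *Rfx4*, *C1ql3*, *Scg2* and *Pcsk1*, and stood in those 2, beginning at -68 for *Scg2* (chr1:79439977-79440276, minus strand) and -78 for *Pcsk1* (chr13:75089607-75089906, plus strand). Of all 32851 windows, 1.79% hold it. A match describes the letters and not a bound site.
Scg2: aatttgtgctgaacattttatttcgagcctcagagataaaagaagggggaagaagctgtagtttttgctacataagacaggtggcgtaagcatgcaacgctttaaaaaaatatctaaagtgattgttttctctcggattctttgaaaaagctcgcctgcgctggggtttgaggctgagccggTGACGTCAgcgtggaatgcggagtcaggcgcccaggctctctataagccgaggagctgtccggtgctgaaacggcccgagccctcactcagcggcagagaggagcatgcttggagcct
Pcsk1: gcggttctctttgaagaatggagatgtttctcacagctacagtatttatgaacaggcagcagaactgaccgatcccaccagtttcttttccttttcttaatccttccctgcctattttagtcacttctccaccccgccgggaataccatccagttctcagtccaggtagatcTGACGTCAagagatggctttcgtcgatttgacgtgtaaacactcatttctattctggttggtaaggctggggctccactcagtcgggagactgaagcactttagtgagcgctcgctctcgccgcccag

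Outside the lists, the genes with the largest ratios among those found in 25% or more of Hcrt nuclei were led by *C1ql3*. This gene encodes a secreted C1q-like synaptic protein and stood at 316 CPM (288 to 347) in Hcrt nuclei and 27.2 CPM (25.9 to 28.5) in the other neurons, a ratio of 11.6 (10.5 to 12.9). After thinning it was found in 24.1% (18.8 to 30.2%) of Hcrt nuclei, 2.65% of the other neurons and 2.78% of oligodendrocyte nuclei. *S100a10*, which carries membrane proteins to the cell surface, followed at 153 against 40.1 CPM. *Rprm* stood at 75.8 against 26.3 CPM, *Dkk3*, a dickkopf family member, at 94.4 against 35.0 CPM, and *Slc2a13*, a myo-inositol transporter, at 206 against 80.9 CPM. Ratios of 2.34 for *Phactr2*, 2.28 for 6330403K07Rik and 2.07 for *Gnb4* came next, the last coming within 2-fold under 2 of 9 other settings (lowest log2 ratio 0.79), and the other 7 genes named by this rule (*Ncald*, *Sulf2*, *Nell2*, *Rbms3*, *Srgap1*, *Pcdh15* and *Nnat*) had log2 ratios between 0.82 and 0.99. All of these 7 but *Nnat* passed 2-fold under at least 1 of 9 other settings.

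On the lower side the rule took genes found in 25% or more of the other neurons, which favours genes that are high there. The predicted gene Gm47283 stood at 224 CPM (200 to 250) in Hcrt nuclei and 624 CPM in the other neurons. *Slit2*, an axon guidance ligand, stood at 38.6 CPM (29.2 to 50.1) against 86.2 CPM. The remaining 8 genes on this side (*Nrgn*, *Cdh13*, *Nptx1*, *Tmem35a*, *Hist3h2ba*, *Ryr2*, *Dock4* and *Sox2*) were within 2-fold, with log2 ratios of -0.83 to -0.69. All of them but *Dock4* and *Sox2* passed 2-fold under 1 or 2 of 9 other settings, with a lowest log2 ratio of -1.26.

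**Figure D4:**
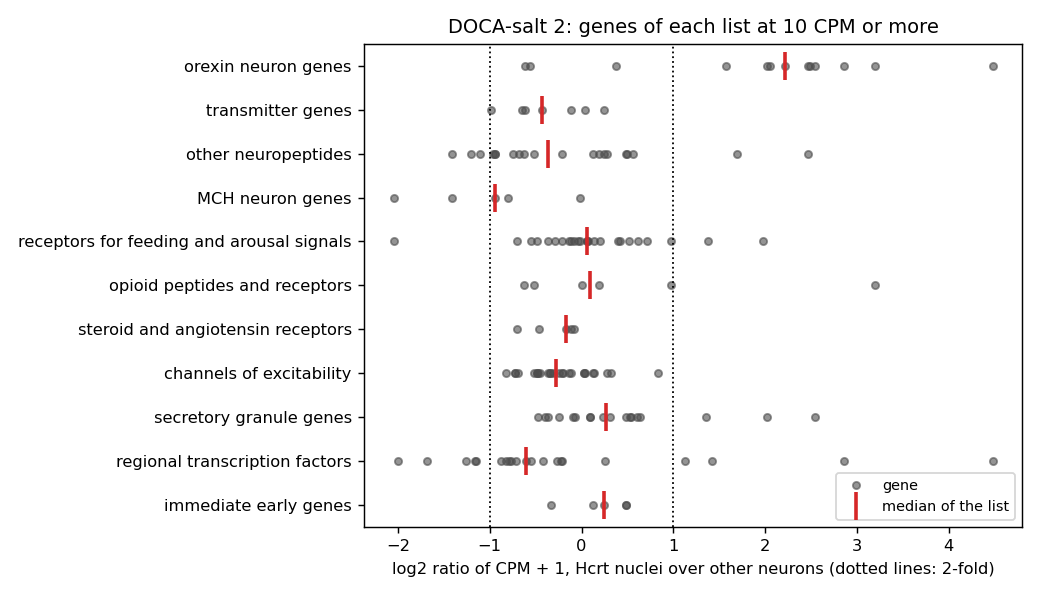
Log2 ratio of CPM + 1 of Hcrt nuclei over other neurons in DOCA-salt 2 for each listed gene at a mean of 10 CPM or more (gray points), with the median of each list (red bars) and 2-fold limits (dotted lines). The orexin neuron genes lie furthest to the right, with a median of 2.22, while the transmitter, steroid receptor, channel and immediate early genes lie within the dotted lines at the settings used here.

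Transcription factors that mark hypothalamic regions fell on both sides. Of 37 listed, 21 were at 10 CPM or more, of which 4 were 2-fold or more higher in Hcrt nuclei (*Lhx9*, *Rfx4*, *Nkx2-2* and *Hmx2*) and 5 were 2-fold or more lower, beside 0.617% and 0.458% of all genes. *Nkx2-2* stood at 40.0 CPM (30.4 to 51.7) against 14.3 CPM, although oligodendrocyte nuclei held it at 68.2 CPM. *Hmx2* stood at 19.99 CPM (13.4 to 28.7) against 8.60 CPM. The 5 lower factors mark other territories. *Nr5a1* and *Fezf1*, of the ventromedial nucleus, stood at 4.83 against 22.2 CPM and 19.99 against 45.5 CPM. *Six3*, *Zic1* and *Meis2* stood at 26.9 against 88.4, 52.4 against 127 and 14.5 against 33.5 CPM. With *Hcrt* at 0.25% *Fezf1* and *Meis2* came within 2-fold (log2 ratios of -0.71 and -0.84), the latter also with equal weights. *Lhx2*, a close relative of *Lhx9*, was under the minimum level at 11.0 against 4.498 CPM.

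Of 15 transmitter genes, 7 were at 10 CPM or more, all within 2-fold, with a median log2 ratio of -0.43. Nearly all genes of the library lay within 2-fold too, with 0.617% of them 2-fold or more higher and 0.458% lower. The vesicular monoamine transporter *Slc18a2*, at a log2 ratio of -0.99, passed the limit under 5 of 9 other settings. The vesicular glutamate transporter *Slc17a6* stood at 181 CPM (160 to 205) in Hcrt nuclei and 176 CPM in the other neurons, a ratio of 1.03 (0.907 to 1.16). After thinning it was found in 15.95% (11.5 to 21.3%) of Hcrt nuclei, 14.3% of the other neurons and 7.78% of oligodendrocyte nuclei. The GABA genes *Gad2*, *Gad1* and *Slc32a1* stood at 426 against 653, 276 against 373 and 168 against 265 CPM. *Gad2* was found after thinning in 32.8% (26.8 to 39.2%) of Hcrt nuclei, 42.9% of the other neurons and 20.6% of oligodendrocyte nuclei. *Slc17a7* had 1 UMI and *Chat* and *Tph2* had 0 in the 259 nuclei.

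Among 24 other neuropeptide genes (the gene *Kiss1*, listed under 2 identifiers, was left out), 20 were at 10 CPM or more besides *Pmch*. Of these 2 were 2-fold or more higher in Hcrt nuclei, namely *Qrfp* and *Oxt*, each of which lost the call without 1 nucleus, and 3 were 2-fold or more lower, beside 0.617% and 0.458% of all genes. *Oxt*, the oxytocin precursor, stood at 2882 CPM against 891 CPM, but 97.4% of its UMIs came from 1 nucleus, which held 4072 *Oxt* UMIs (16.8% of 24252) beside *Hcrt* at 0.561% and no *Lhx9* UMI. Without that nucleus *Oxt* stood at 76.4 CPM, a log2 ratio of -3.53, and no other Hcrt nucleus held more than 0.246%. The share of nuclei with an *Oxt* UMI differed little, at 9.48% of Hcrt nuclei and 10.2% of the other neurons after thinning. *Cartpt*, *Tac1* and *Avp* were the lower ones, at 146 against 391, 47.6 against 111 and 223 against 484 CPM. The share of nuclei with an *Avp* UMI was not lower, at 21.6% of Hcrt nuclei and 20.7% of the other neurons without thinning. *Avp* came within 2-fold without the highest doublet scores and with equal weights (log2 ratio up to -0.52), and *Tac1* with *Hcrt* at 0.25% (-0.96). For *Cartpt*, the level in the other neurons rested on the Pmch nuclei among them, and the log2 ratio went from -1.41 to 0.16 when these were left out. Of 7 listed MCH neuron genes, 5 were at 10 CPM or more besides *Pmch*, and *Cartpt* and *Tacr3* were the 2 that were 2-fold or more lower, beside 0.458% of all genes. Without the Pmch nuclei the log2 ratio of *Tacr3* went from -2.04 to -1.17, and its mean level came below 10 CPM. *Gal*, which some lateral hypothalamic neurons co-release, stood at 119 CPM (102 to 138) against 97.8 CPM, and *Nts* at 44.8 CPM (34.6 to 57.1) against 31.6 CPM. *Vip* had no UMI in Hcrt nuclei.

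Opioid genes beside *Pdyn* showed a smaller difference. Of 8 opioid peptides and receptors, 6 were at 10 CPM or more and 1 of them, *Pdyn*, was 2-fold or more higher, beside 0.617% of all genes. *Oprk1*, the kappa receptor on which dynorphin acts, stood at 109 CPM (92.6 to 127) in Hcrt nuclei and 54.9 CPM in the other neurons, a ratio of 1.99 (1.68 to 2.33) just short of the limit. It passed the limit under 4 of 9 other settings, with log2 ratios from 0.79 to 1.16. After thinning it was found in 11.2% (7.45 to 15.99%) of Hcrt nuclei, 5.22% of the other neurons and 1.67% of oligodendrocyte nuclei. The nociceptin receptor *Oprl1* stood at 97.9 CPM in both classes, *Penk* at 47.6 against 74.1 CPM and *Pnoc* at 50.3 against 43.9 CPM.

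Of 39 receptors for feeding and arousal signals, 25 were at 10 CPM or more, of which 2 were 2-fold or more higher, 1 was 2-fold or more lower and 22 lay between, with a median log2 ratio of 0.06. Of all genes, 0.617% were 2-fold or more higher and 0.458% lower. *Trhr*, the receptor of thyrotropin-releasing hormone, stood at 57.9 CPM (46.2 to 71.7) against 13.9 CPM. *Cckar*, a cholecystokinin receptor, stood at 22.8 CPM (15.7 to 32.0) against 8.16 CPM. The urocortin receptor *Crhr2* stood at 22.8 against 11.0 CPM, a log2 ratio of 0.98 that passed 2-fold under 6 of 9 other settings (0.74 to 1.35). The lower one was the neurokinin receptor *Tacr3*, at 3.45 CPM (1.12 to 8.04) against 17.3 CPM, of which the Pmch nuclei among the other neurons held a large part (log2 ratio of -1.17 without them). The orexin receptors themselves were level, *Hcrtr1* at 17.9 (11.7 to 26.3) against 17.1 CPM and *Hcrtr2* at 14.5 (8.96 to 22.1) against 15.3 CPM. *Htr2c* stood at 112 against 77.9 CPM. The leptin receptor *Lepr* had 4 UMIs, or 2.76 CPM (0.751 to 7.06) against 3.03 CPM, and *Mc4r* also had 4 UMIs, so no difference was detectable at this depth.

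Receptors of steroids and angiotensin were sparse. Of 11 steroid and angiotensin receptors and enzymes 5 were at 10 CPM or more, all within 2-fold, with a median log2 ratio of -0.17. Of all genes, only 0.617% were 2-fold or more higher and 0.458% lower. The mineralocorticoid receptor *Nr3c2* had 12 UMIs, or 8.27 CPM (4.27 to 14.5) against 11.7 CPM. The glucocorticoid receptor *Nr3c1* stood at 73.8 CPM against 79.7 CPM. *Agtr1a* had 3 UMIs and *Hsd11b2*, the enzyme that protects the mineralocorticoid receptor from glucocorticoids, had 0.

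Of 30 channels of excitability, 26 were at 10 CPM or more and lay within 2-fold, as nearly all genes of the library did, with a median log2 ratio of -0.28. *Kcnj3*, *Kcnk3* and *Trpc4* passed 2-fold on the lower side under 1, 2 and 1 of 9 other settings, with lowest log2 ratios of -1.14, -1.26 and -1.35. *Abcc8*, the sulfonylurea receptor of the ATP-sensitive potassium channel, had the largest ratio at 26.2 CPM (18.5 to 36.0) against 14.3 CPM, and *Kcnj3*, a G protein-gated potassium channel, the smallest at 24.1 (16.8 to 33.5) against 43.4 CPM. Of 12 immediate early genes 5 were at 10 CPM or more, all within 2-fold, where only 0.617% of all genes were 2-fold or more higher and 0.458% lower. *Fos* stood at 19.3 CPM (12.8 to 27.9) against 13.4 CPM and *Egr1* at 43.4 against 39.9 CPM.

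Orexin and MCH neurons share a region, and the 465 Pmch nuclei of DOCA-salt 2 (*Pmch* at 2% or more, *Hcrt* below 0.5%) were the nearest class to compare. They were shallower, with a median of 1956 UMIs. At a mean of 10 CPM or more, 2.04% of 9826 genes were 2-fold or more higher in Hcrt nuclei and 1.55% were 2-fold or more lower, and the median log2 ratio over all genes was 0.11. Of 12 orexin neuron genes at this level 11 were 2-fold or more higher in Hcrt nuclei, with a median log2 ratio of 2.89. One of the 11, *Qrfp*, again rested on a single nucleus. Without that nucleus it stood at 10.4 CPM against 2.36 CPM in Pmch nuclei, under the minimum mean level. *Lhx9*, with 3 UMIs in Pmch nuclei, stood at 1.41 CPM there (0.292 to 4.13), a ratio of 52.7 with a wide interval of 17.6 to 259. *Pdyn* stood at 18.4 CPM in Pmch nuclei, a ratio of 20.6 (14.9 to 29.3), and *C1ql3* at 18.4 CPM, a ratio of 17.2 (12.4 to 24.5).

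Of the MCH neuron genes, 5 were at 10 CPM or more besides *Pmch*, of which 2 were 2-fold or more higher in Pmch nuclei and 3 lay within 2-fold (median log2 ratio of Hcrt over Pmch nuclei -0.22). *Cartpt*, which encodes the CART peptides, stood at 8219 CPM in Pmch nuclei and 146 CPM in Hcrt nuclei. *Tacr3* stood at 276 against 3.45 CPM. Outside the lists, *Igf1*, a growth factor, stood at 132 CPM in Pmch nuclei and 3.45 CPM (1.12 to 8.04) in Hcrt nuclei, and *Fkbp11*, a chaperone of the secretory pathway, at 110 against 4.14 CPM. *Nptx1*, a pentraxin related to *Nptx2*, stood at 829 CPM in Pmch nuclei and 73.8 CPM in Hcrt nuclei, 11.2-fold (9.24 to 13.8) higher in the former. *Nptx2* was ordered the other way, at 16.02 CPM in Pmch nuclei and 172 CPM in Hcrt nuclei. The convertases split as well, with *Pcsk2* at 1053 CPM in Pmch nuclei and 238 CPM in Hcrt nuclei while *Pcsk1* stood at 38.2 and 158 CPM. Of the granins, *Chga* stood at 461 CPM in Pmch nuclei and 225 CPM in Hcrt nuclei, and *Scg2* at 338 and 2317 CPM. Among the 18 secretory granule genes, 3 were 2-fold or more higher in Hcrt nuclei, 2 were 2-fold or more lower and 13 lay within 2-fold. *Nkx2-1*, a homeobox factor of the ventral hypothalamus, stood at 137 CPM in Pmch nuclei and 17.2 CPM in Hcrt nuclei, and *Nucb2*, the nesfatin precursor, at 135 and 27.6 CPM. Among 16 regional transcription factors at 10 CPM or more, 3 were 2-fold or more higher in Hcrt nuclei, 2 were lower and 11 lay within 2-fold. Of 39 receptors for feeding and arousal signals, 23 were at 10 CPM or more (median log2 ratio 0.19). Of these, 4 were 2-fold or more higher in Pmch nuclei, 4 were 2-fold or more higher in Hcrt nuclei and 15 lay within 2-fold. The shares over all genes were 1.55% and 2.04%. Those higher in Pmch nuclei included *Npy2r* at 52.8 against 16.5 CPM and *Adra2a* at 123 against 29.6 CPM. *Trhr*, *Cckar*, *Crhr2* and *Htr1a* were the 4 higher in Hcrt nuclei. The remaining genes named by the rule for this comparison were *Pcdh8*, *Klhl13*, *Parm1*, *Rcn1*, *Ell2* and *Maged2* on the Pmch side, at log2 ratios of -2.96 to -2.23. On the Hcrt side they were *Pcdh15*, *Nell1*, *Trp53i11*, *Ptprt*, *Trank1*, *Fuca1*, *Gabrq*, *Pde10a* and *Arhgap36*, at 1.34 to 1.95.

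Several genes stood higher in Hcrt nuclei with a higher *Hcrt* share, of which *C1ql3* had been named for its ratio in these same nuclei. Among Hcrt nuclei, *Pdyn* stood at 136 CPM (103 to 175) in the 69 nuclei with *Hcrt* at 0.5 to 1% of UMIs, 313 CPM in the 62 nuclei at 1 to 2%, 398 CPM in the 55 nuclei at 2 to 4% and 713 CPM (629 to 804) in the 73 nuclei above 4%. *Lhx9* stood at 23.0, 62.6, 72.4 and 148 CPM in the same order. *C1ql3* stood at 168, 193, 333 and 600 CPM, *Scg2* at 1127, 1534, 2289 and 4506 CPM and *Pcsk1* at 69.0, 87.0, 138 and 347 CPM. In all 5 genes the interval of the highest group lay above that of the lowest. *Gad2* went the other way, at 575, 408, 500 and 215 CPM, where 215 CPM (171 to 268) compares with 257 CPM in oligodendrocyte nuclei. *Slc17a6* stood at 159, 199, 206 and 172 CPM, with intervals that overlapped throughout. The median UMIs of these groups were 3969, 3692, 3021 and 3230.

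Just below the limit the markers differed among themselves. The 166 other neurons with *Hcrt* at 0.2 to 0.5% of UMIs held *Pdyn* at 98.9 CPM (77.1 to 125) and *Lhx9* at 17.0 CPM (8.76 to 29.6). In the 10171 neurons with no *Hcrt* UMI these stood at 40.3 and 1.71 CPM. *Rfx4* and *Nptx2* stood at 11.3 and 26.9 CPM in the 0.2 to 0.5% group and at 12.6 and 31.3 CPM where *Hcrt* was at 0. In the 0.1 to 0.2% group *Rfx4* stood at 27.7 CPM (18.4 to 40.0). *Scg2*, *Pcsk1* and *Nek7* stood at 855, 46.6 and 63.6 CPM in the 0.2 to 0.5% group. Where *Hcrt* was at 0 they stood at 576, 24.7 and 27.2 CPM. *Igfbp3* was level, at 11.3 and 11.5 CPM. In the groups with *Hcrt* below 0.2% *Pdyn* lay between 38.6 and 43.4 CPM. *Lhx9* stood there at 1.71 CPM (1.33 to 2.17) where *Hcrt* was at 0, and at 2.53, 6.56 (3.49 to 11.2) and 5.94 CPM in the next groups up to 0.2%. *C1ql3* stood at 26.1, 26.0, 31.8 and 53.4 CPM (40.1 to 69.7) in the same order. These groups share 1 library and its free RNA, and the part of free RNA, of mixed barcodes and of real *Hcrt* levels in this gradient was not tested.

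**Figure D5:**
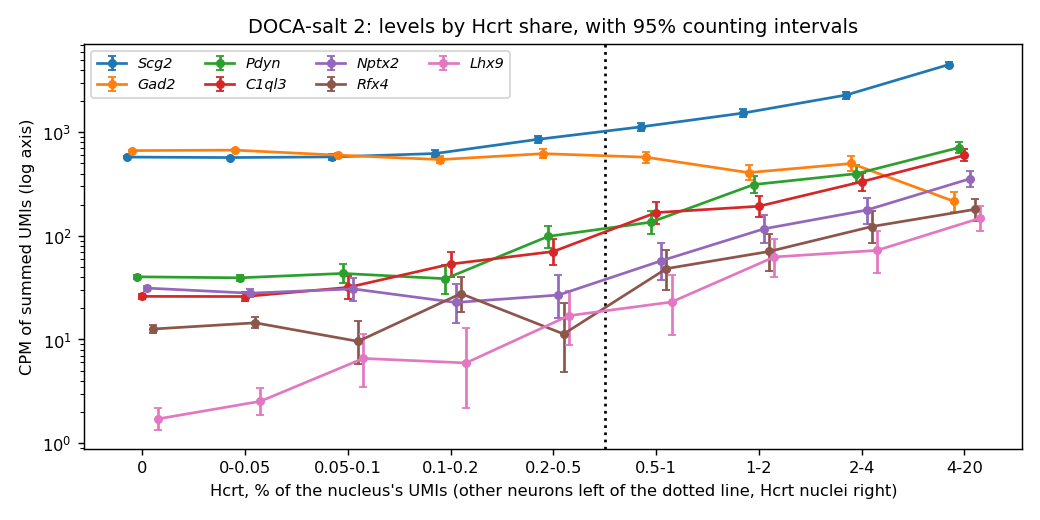
Levels of 7 genes in DOCA-salt 2 neurons grouped by the *Hcrt* share of the nucleus, in CPM of summed UMIs on a log axis with exact Poisson 95% intervals (counting error only), with other neurons left and Hcrt nuclei right of the dotted line. *Pdyn* goes from 40.3 CPM where *Hcrt* is at 0 to 713 CPM above 4%, *Lhx9* from 1.71 to 148 CPM, and *Gad2* from 666 to 215 CPM.

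At 1000 UMIs a nucleus showed few markers at once. Of *Lhx9*, *Pdyn*, *Rfx4*, *Nptx2* and *C1ql3*, at least 1 was found in 125 of 232 Hcrt nuclei, or 53.9% (47.2 to 60.4%), against 9.88% of the other neurons and 4.76% of Pmch nuclei. At least 2 were found in 23.7% (18.4 to 29.7%) of Hcrt nuclei, 0.590% of the other neurons and 0 of 336 Pmch nuclei. *C1ql3* had been named for its high ratio in these same nuclei, which fixes part of this gap, and the counts are a description.

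Transcripts of other cell types were present at the level of the library. The 6 oligodendrocyte markers summed to 1870 CPM in Hcrt nuclei and 1572 CPM in the other neurons. Of these, 0 of 6 were past 2-fold, beside 0.617% (higher) and 0.458% (lower) of all genes. The 5 markers of oligodendrocyte precursors summed to 169 against 146 CPM, with *Olig1* most abundant at 77.9 CPM. The 5 neuronal markers summed to 2472 against 3086 CPM, with *Snap25* most abundant at 995 CPM. *Snap25* and *Syt1* are among them and were used to choose the other neurons, so that part of this gap was set by that choice. The 3 markers not used for it had a median log2 ratio of -0.03. The 5 astrocyte markers summed to 727 against 758 CPM, with *Agt* most abundant at 359 CPM. The microglial, endothelial, mural and ependymal lists summed to 44.1, 128, 62.7 and 12.4 CPM in Hcrt nuclei and 59.2, 122, 60.9 and 16.2 CPM in the other neurons, and no gene of any of these lists was at 0 in Hcrt nuclei. The nuclei with the highest doublet scores, 2860 of the 18907 kept, took in 17.8% of Hcrt nuclei, 18.4% of the other neurons and 21.3% of Pmch nuclei. The part of such transcripts in the results above was not tested. Between libraries 122 pairs of barcodes were shared by kept nuclei, and 0 of these belonged to a Hcrt nucleus.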

How the data were processed

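The authors sequenced nuclei with a 10x 3′ kit and deposited 1 matrix of UMI counts per library, made with Cell Ranger 3.0.1 against mm10. The deposited counts were used unchanged. Barcodes with 201 to 6999 genes, fewer than 25000 UMIs and under 15% mitochondrial UMIs were kept. For each class of nuclei UMIs were added up and given as CPM, with exact Poisson or binomial 95% intervals, which cover counting error only. Log2 ratios had 1 CPM added. Only DOCA-salt 2 held 5 or more Hcrt nuclei, so that the planned edgeR test had no replicate libraries and was replaced by fold limits. Members, gene lists and motifs were chosen with earlier results of these data known. Every gene of the lists could be named, and beyond them the 15 highest and 10 lowest by ratio to other neurons (10 and 10 against Pmch nuclei) among genes found in 25% or more of the nuclei of the class where they were higher. Doublets were scored with Scrublet in scanpy 1.11.5. Its automatic threshold marked 0, 0, 2 and 0 nuclei and so did not work, and the top scores at 0.8% per 1000 nuclei were taken instead. They were removed only as an alternative. The edgeR 4.0.16 alternative was tried on simulated data. With a trend in the dispersion (the spread of counts) it called more unchanged than changed genes there. The trend was therefore left out, so that this setting was chosen on the simulation. Python 3.11.15 and R 4.3.3 were used. Values of some listed genes are not reported here.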

Additional observations from a re-analysis of the deposited data

Results flagged for a closer look

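Signal outside the nuclei described was found in barcodes of DOCA-salt 2 that the quality limits had removed. Of 290 barcodes that met the *Hcrt* and *Pmch* limits there, 31 (10.7%) had been removed. Of these, 21 had too many genes or UMIs, and 10 were removed by the remaining limits, on mitochondrial transcripts or on too few genes. Of all barcodes of this library, 4.29% were removed, and 1.36% were above the limits on genes or UMIs. The 21 had a median of 31049 UMIs and a median *Hcrt* share of 0.890%. *Lhx9* stood at 20.5 CPM (11.95 to 32.8) in them, *Pdyn* at 135 CPM (111 to 163), *C1ql3* at 150 CPM and *Scg2* at 1204 CPM. No such barcode was removed in the other libraries.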

How the results depend on the processing

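The number of Hcrt nuclei in DOCA-salt 2 was 373 with *Hcrt* at 0.25% and 5 UMIs, and 190 with *Hcrt* at 1%. Genes 2-fold or more higher and lower than in other neurons, 62 and 46 as reported, numbered 235 and 498 with no minimum level, 114 and 166 with each nucleus weighted equally, and 35 and 16 at a minimum of 20 CPM. The lower genes numbered 124 with *Hcrt* at 1%, 23 with *Hcrt* at 0.25% and 121 without the highest doublet scores. Against Pmch nuclei, 200 and 152 became 943 and 598 with no minimum and 96 and 98 at 20 CPM. With the library as a replicate block, edgeR on both libraries with a Hcrt nucleus called 35 genes higher and 0 lower at an adjusted p of 0.05, with 194 and 187 at an unadjusted p under 0.05. That fit had 1 residual degree of freedom and rested on the 2 nuclei of Sham 1. The thinned share with *Lhx9*, 7.33% as reported, was 12.9% with *Hcrt* at 1% and 28.6% without thinning. The share with *Pdyn*, 27.6% as reported, was 47.5% at 2000 UMIs and 55.6% without thinning. The log2 ratio of *Oxt* became -3.58 with *Hcrt* at 1% and -3.53 without the nucleus rich in *Oxt*, and that of *Cartpt* became 0.16 without Pmch nuclei among the other neurons. The equal weights, the 20 CPM minimum and the removal of the nuclei rich in *Oxt* or *Qrfp* were chosen after seeing the data. DESeq2, other size factors, the fit without a block and leaving out a library were not run, since 1 library alone held 5 or more Hcrt nuclei.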

Other observations

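Rarer transcripts, chosen after their values were seen, also stood higher in Hcrt nuclei than in the other neurons of DOCA-salt 2. *Col18a1*, a collagen of basement membranes, stood at 60.7 CPM (48.6 to 74.7) against 8.63 CPM and was found in 23.2% of Hcrt nuclei. *Tmem114* stood at 52.4 CPM against 10.6 CPM, *Hmcn1*, an extracellular matrix protein, at 35.2 CPM against 5.75 CPM, and *Shisa6*, an AMPA receptor partner, at 31.0 CPM against 5.10 CPM. *Cd36*, a fatty acid receptor, stood at 17.9 CPM (11.7 to 26.3) against 1.58 CPM, and *Vgll2* at 13.8 CPM (8.42 to 21.3) against 2.55 CPM. In the 2 Hcrt nuclei of Sham 1 each of these genes had 0 UMIs, which at their depth allows no comparison.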
